A study of Homo sapiens with 18 samples.

Results

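The mitosis genes are 46 genes of entry into mitosis, spindle assembly, chromosome segregation and cytokinesis, chosen by name and matched to the gene symbols of the count table. Each of the 46 symbols was found once among 57500 genes, and all 46 were among the 16994 genes that passed the filter on low counts. The genes were measured by RNA-seq in 18 libraries of IMR90 human lung fibroblasts, 3 libraries in each of 6 groups. Proliferating cells (Prol) were the reference, and Sen (IR) are cells made senescent by 20 Gy of X-rays and collected on day 12. In Sen (IR) + CCCP, irradiated cells received the uncoupler CCCP for 48 h from day 1, which in cells overexpressing Parkin leads to the removal of mitochondria. The same depleted cells received 20 mM sodium acetate from day 3 (Sen (IR) + CCCP + acetate), transfected mitochondrial DNA on day 10 (Sen (IR) + CCCP + mtDNA), or both (Sen (IR) + CCCP + acetate + mtDNA). Doses and days are those of the study's methods. Parkin is overexpressed from a transgene, no group of proliferating cells given CCCP was analysed here, and every group with acetate or mtDNA was also irradiated and depleted.

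Cells divide by raising cyclin-dependent kinase 1 (CDK1) activity with its cyclins, building a spindle whose microtubules attach to kinetochores, and holding the anaphase-promoting complex in check until every chromosome is attached. Most genes of this machinery are transcribed late in the cell cycle, by B-MYB and FOXM1 with the MuvB complex and NF-Y, and their mRNAs are low in cells that have left the cycle. Irradiated fibroblasts arrest through p53 and its target CDKN1A, the inhibitor p21, and arrested cells repress the same promoters through the DREAM complex. RNA from a culture averages over its cells, so a smaller number of cycling cells and less mRNA per cell cannot be told apart in any result below.

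The libraries held 24624886 to 46224280 counts on genes. The lowest count of any mitosis gene in any library was 3, and fibroblast collagens and vimentin were present in every library. The 13 protein-coding genes of mtDNA took 1.75% to 2.89% of the counts in Prol and Sen (IR) and 0.0461% to 0.237% in the 12 depleted libraries. CDKN1A stood at 679.7 to 725 CPM in Prol (counts scaled by library size, not by gene length) and 950.0 to 1041 in Sen (IR). It stood at 1066 to 1131 CPM in Sen (IR) + CCCP, 1112 to 1216 with mtDNA alone, and 1706 to 1895 in the 6 libraries with acetate. Among the libraries, 2 stood apart from their replicates. In Sen (IR) the third differed from the other two by a chi-square of 22.2 to 27.7 per gene, and in Sen (IR) + CCCP + acetate + mtDNA the second did so by 24.7 to 28.3, whereas all other pairs lay between 2.78 and 7.75. The second library of the combination also carried 0.237% of its counts on mtDNA genes, against 0.064% and 0.0624% in its replicates, and of the 46 mitosis genes 40 were highest in it. Median log2 fold changes of the 46 genes and counts of edgeR calls that rest on it are given with and without it. Other results that include it are given only with it, unless stated.

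**Figure D1:**
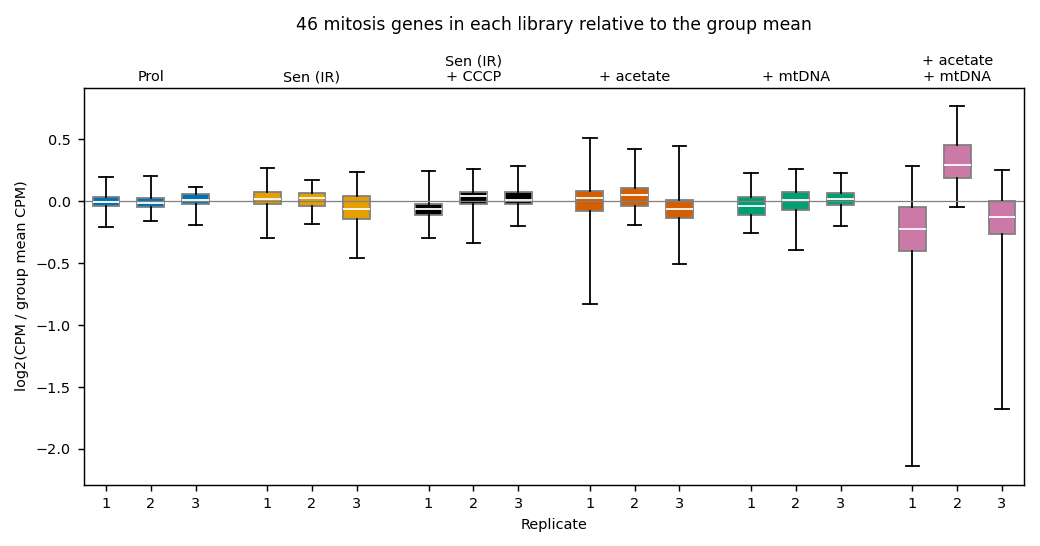
Box plots of the 46 mitosis genes in each of the 18 libraries, as log2 of the CPM over the mean CPM of the gene's group (boxes span the quartiles, whiskers the full range, white lines the medians). In Sen (IR) + CCCP + acetate + mtDNA the median of replicate 2 lay at 0.29 and those of replicates 1 and 3 at -0.22 and -0.13, while every other library had a median between -0.07 and 0.05.

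The summed level of the 46 genes separated the groups. It was 1778 to 1799 CPM in Prol, 920.3 to 965 in Sen (IR), 1287 to 1388 in Sen (IR) + CCCP and 1186 to 1245 with mtDNA. With acetate it was 432 to 456 CPM, and with acetate and mtDNA 430.0 to 517 CPM. The ranges of the 2 groups with acetate overlapped, and no others did. As a share of the Prol mean, the median gene stood at 43.9% in Sen (IR), 69.1% in Sen (IR) + CCCP, 62.9% with mtDNA, 12.5% with acetate and 14% with both. The highest mean was in Prol for 36 of the 46 genes, in Sen (IR) + CCCP for 7 (CCNA2, CDK1, MAD2L1, KIF18A, ECT2, NCAPG and FOXM1), in Sen (IR) + CCCP + mtDNA for CDC25B and BUB3, and in Sen (IR) for AURKA. The lowest mean was in a group with acetate for all 46, 33 of them with acetate alone and 13 with acetate and mtDNA. That split includes the second library of the combination, in which 40 of the 46 genes were highest, and was not computed without it. The groups of highest and lowest mean were not counted over all genes tested. The median log2 fold change of the combination against acetate alone was 0.11 with that library and -0.057 without it.

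**Figure D2:**
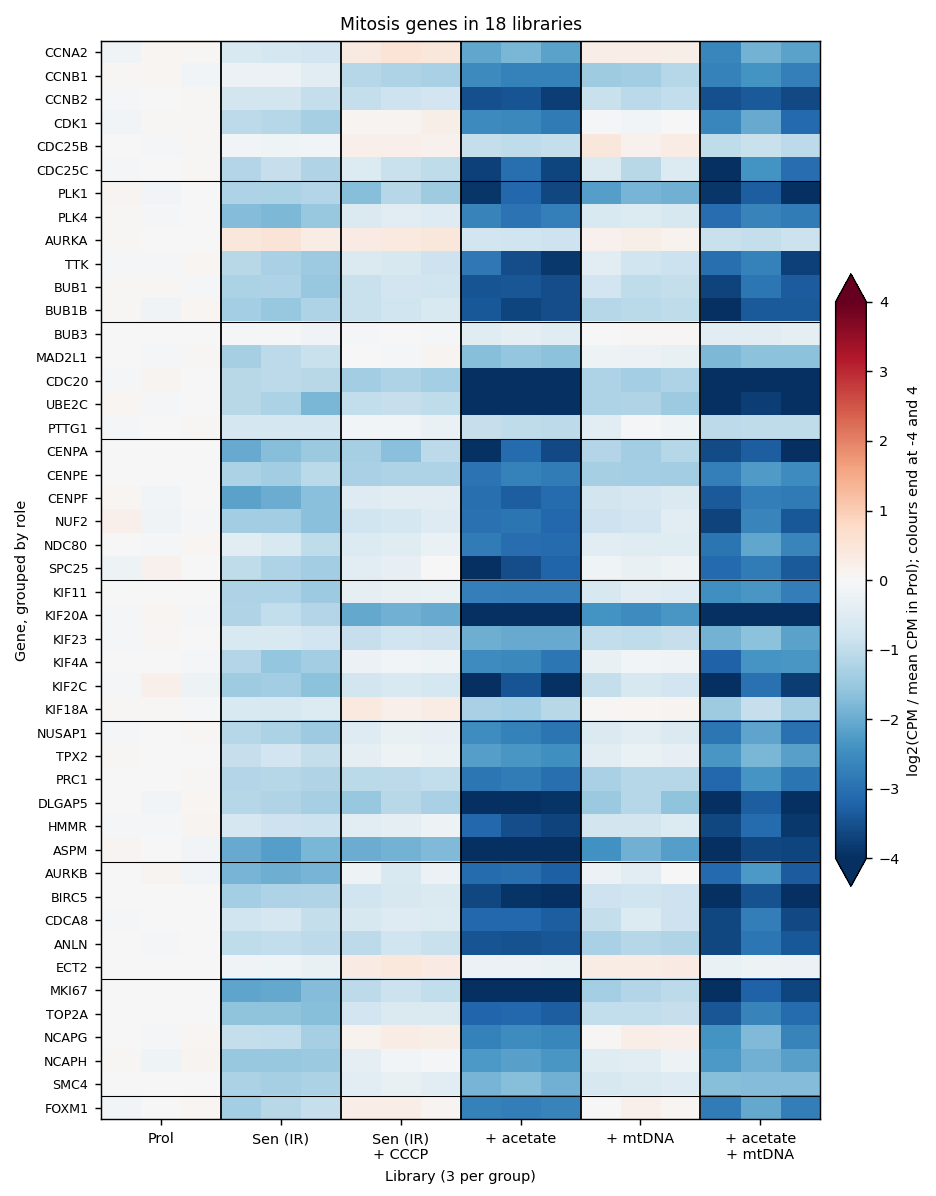
Heat map of the 46 mitosis genes (lines, grouped by role) in the 18 libraries (columns, 3 per group), coloured by log2 of the CPM over the gene's mean in Prol, with colours ending at -4 and 4. The 6 columns with acetate are the darkest blue for nearly every gene, the Sen (IR) + CCCP columns are paler than the Sen (IR) columns for most genes, and AURKA, BUB3, CDC25B and ECT2 stay near white outside the acetate groups.

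Per unit of length, on the TPM scale, the genes spanned a wide range of levels in Prol. The actin-binding cytokinesis protein ANLN was highest at a mean of 116 TPM, followed by the topoisomerase TOP2A at 99.8, the spindle assembly factor TPX2 at 75.2, the RhoA activator ECT2 at 72.7 and the checkpoint protein BUB3 at 67.6. The phosphatase CDC25C was lowest at 3.96 TPM, below the centromeric histone CENPA at 9.25 and the condensin subunit NCAPH at 10.2.

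The promoters of the genes share short elements known to bind these regulators. The cell cycle homology region, bound by the MuvB complex, was searched as TTTGAA or TTCGAA, and the NF-Y box as CCAAT. No other letters were searched, so other forms of either element would be missed. Both strands were searched in windows from 250 bases before to 50 after each annotated start (RefSeq, GRCh38.p14), of which 52 belong to 39 of the 46 genes, and a pair of elements may overlap. TTTGAA or TTCGAA was in 65.4% of the 52 windows and in 16.4% of all 35116 windows, and CCAAT was in 69.2% against 34.6%. Windows with both kinds made up 50% of the mitosis gene windows and 6.38% of all windows. By gene, 31 of the 39 held TTTGAA or TTCGAA, 31 held CCAAT and 24 held both. A match of letters is a description and not a measured binding site. The 150 bases before the start are printed 5′ to 3′ on the strand of the gene for 5 genes whose levels took different courses below, with these elements, read on either strand, in capitals. MKI67 (chr10:128126424-128126573, minus strand) rose with mitochondrial depletion, CCNB2 (chr15:59104996-59105145, plus strand) and CDC20 (chr1:43358831-43358980, plus strand) did not pass the test there, and CCNB1 (chr5:69167000-69167149, plus strand) and KIF20A (chr5:138178962-138179111, plus strand) fell.
MKI67: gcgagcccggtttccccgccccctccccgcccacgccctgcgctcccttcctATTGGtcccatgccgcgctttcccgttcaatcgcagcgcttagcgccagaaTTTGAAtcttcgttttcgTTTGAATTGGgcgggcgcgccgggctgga
CCNB2: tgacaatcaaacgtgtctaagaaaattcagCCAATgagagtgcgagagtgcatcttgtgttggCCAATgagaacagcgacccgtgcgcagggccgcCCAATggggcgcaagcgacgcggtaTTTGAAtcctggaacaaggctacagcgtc
CDC20: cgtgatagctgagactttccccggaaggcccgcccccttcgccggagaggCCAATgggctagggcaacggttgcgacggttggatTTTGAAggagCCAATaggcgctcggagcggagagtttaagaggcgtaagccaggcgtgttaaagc
CCNB1: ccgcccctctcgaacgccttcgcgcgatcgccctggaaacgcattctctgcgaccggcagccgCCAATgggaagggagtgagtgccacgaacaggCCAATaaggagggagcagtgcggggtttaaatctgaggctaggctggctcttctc
KIF20A: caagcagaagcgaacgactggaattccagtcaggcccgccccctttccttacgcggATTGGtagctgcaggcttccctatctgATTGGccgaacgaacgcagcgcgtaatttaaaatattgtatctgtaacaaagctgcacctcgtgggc
In MKI67, which held 2 copies of TTTGAA, the second overlaps the neighbouring ATTGG by a base, while CCNB2 held 3 CCAAT boxes followed by 1 TTTGAA. CCNB1 and KIF20A held 2 CCAAT boxes each in these 150 bases and neither TTTGAA nor TTCGAA, which says only that those letters are not there. KIF23, which was also called lower with depletion, held TTTGAA in its window. Of genes that rose, CCNA2, AURKB, NCAPH and PTTG1 held CCAAT but neither TTTGAA nor TTCGAA, whereas CDK1, CENPF and TOP2A held both CCAAT and TTTGAA.

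The comparison of Sen (IR) with Prol asks how far the mitotic programme is lowered in irradiated cells. In Sen (IR), 43 of the 46 genes were lower than in Prol and 1 was higher at an edgeR adjusted p under 0.05, where 29.9% of the 16994 genes tested were lower and 26.7% higher. The median log2 fold change was -1.18 over the 46 genes and -0.011 over all genes tested. For 45 genes every Sen (IR) library lay below every Prol library, which held for 32.1% of all genes, and the counts of calls were the same whichever of the 6 libraries was left out.

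MKI67, the proliferation marker Ki-67 (chr10:128096659-128126423), measured 58.8, 60.2 and 58.3 CPM in the 3 Prol libraries and 13.8, 14.3 and 17.8 in the 3 Sen (IR) libraries (log2 fold change -1.95 ± 0.11, edgeR adjusted p = 3.36e-12). TOP2A, which untangles sister chromatids (chr17:40388525-40417896), measured 171, 171 and 169.8 CPM in Prol and 55.5, 56.5 and 52.4 in Sen (IR) (-1.64 ± 0.10, edgeR adjusted p = 5.75e-12). Neither gene's groups overlapped. The largest falls were in ASPM, a protein of the spindle poles, from 47.9, 44 and 41.1 CPM to 10.9, 9.63 and 12.4 (-2.01 ± 0.12, edgeR adjusted p = 6.34e-12), followed by MKI67 and CENPF, a kinetochore protein (-1.93). AURKB, the kinase of the chromosomal passenger complex, fell by a similar amount (-1.87 ± 0.17, edgeR adjusted p = 4.07e-09) and its partner BIRC5, survivin, by less (-1.27 ± 0.092, edgeR adjusted p = 1.30e-10).

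Among the cyclins and their kinase, the falls were smaller. CDK1 (chr10:60778331-60794852) measured 33.5, 37 and 37.4 CPM in Prol and 17.5, 16.4 and 14.2 in Sen (IR) (-1.16 ± 0.12, edgeR adjusted p = 5.55e-08). CCNA2, cyclin A2 (chr4:121816444-121823883), measured 28.2, 33.3 and 32.5 and 20.6, 19.1 and 18.6 CPM (-0.69 ± 0.10, edgeR adjusted p = 6.27e-06). CCNB1, cyclin B1 (chr5:69167135-69178245), kept the most at 42.4, 43.3 and 38.6 CPM in Prol and 35.1, 35.5 and 30.8 in Sen (IR) (-0.29 ± 0.081, edgeR adjusted p = 0.00406). All 3 fell beyond the spread between libraries, and cyclin B1 stood at 81.6% of its Prol mean against 44.6% for CDK1.

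The mitotic kinases moved apart. The kinase of centriole duplication PLK4 fell by 1.68 on the log2 scale, the checkpoint kinases BUB1 and BUB1B by 1.32 and 1.37, TTK by 1.28 and the polo kinase PLK1 by 1.22, all past the threshold. AURKA, the kinase of spindle poles (chr20:56369389-56392337), was the 1 gene that rose, from 29.5, 28.5 and 28.1 CPM to 38.9, 41 and 35.5 (0.42 ± 0.058, edgeR adjusted p = 1.86e-06), and its groups did not overlap. Its rise passed under every alternative but the rule of a nominal p and an absolute log2 fold change over 0.5. The genes that did not pass the test were the CDK1-activating phosphatase CDC25B at -0.14 ± 0.065 (edgeR adjusted p = 0.0705) and the checkpoint protein BUB3 at -0.08 ± 0.046 (edgeR adjusted p = 0.145).

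The other roles moved as blocks. All 6 kinetochore and centromere genes fell with a median log2 fold change of -1.36, all 6 kinesins with -1.21, all 6 spindle-associated genes with -1.19 and all 5 genes of chromosome structure and surface with -1.51. In the checkpoint and anaphase-promoting group 4 of 5 fell, among them the activator CDC20 (-1.08 ± 0.10, edgeR adjusted p = 4.15e-09) and the ubiquitin-conjugating enzyme UBE2C (-1.35). All 5 passenger complex and cytokinesis genes fell, ECT2 the least (-0.21 ± 0.045, edgeR adjusted p = 4.63e-04). FOXM1, the transcription factor that drives many of these genes, fell from 20.6, 22.4 and 23.2 CPM to 8.66, 10.3 and 11.8 (-1.12 ± 0.12, edgeR adjusted p = 5.01e-08).

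**Figure D3:**
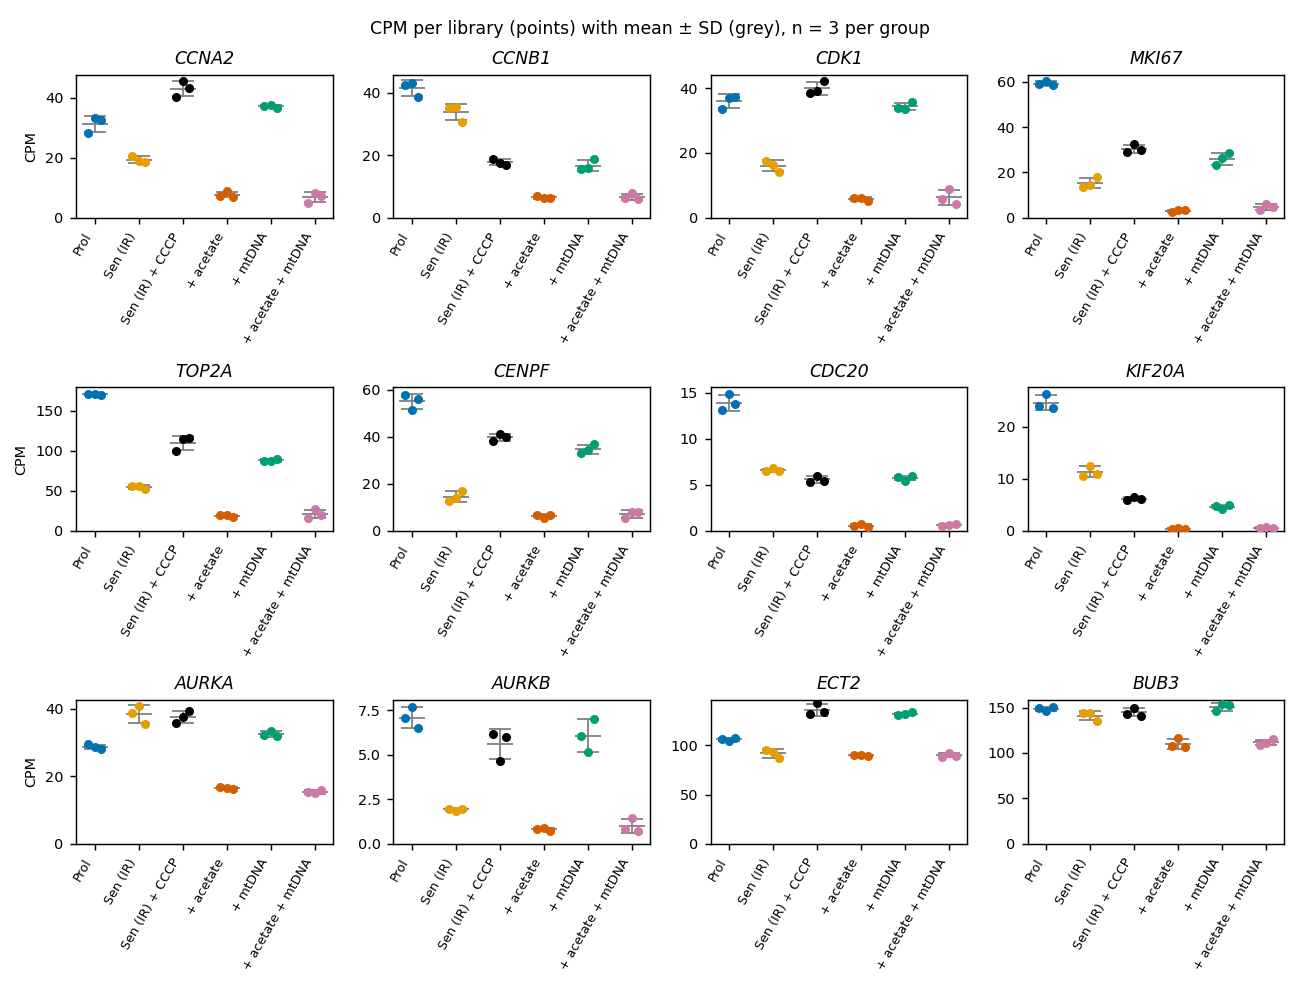
CPM of 12 mitosis genes in each of the 18 libraries (points) with mean and SD (grey), n = 3 per group, on axes that start at 0. CCNA2 and CDK1 lie above all Prol libraries in Sen (IR) + CCCP, CCNB1 and KIF20A are lower there than in Sen (IR), and all 12 are lower in both groups with acetate than in Sen (IR) + CCCP.

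The comparison of Sen (IR) + CCCP with Sen (IR) asks how mitochondrial depletion changed the programme in irradiated cells. After depletion 29 of the 46 genes were higher and 3 lower, against 34% higher and 31.3% lower among all genes tested. The median log2 fold change was 0.58 over the 46 genes and 0.026 over all genes. Scaling by library totals or by TPM moved the median of all genes in this comparison to 0.29 and 0.45, and the excess of the 46 genes over that median was 0.55 under each scaling. The genes called were then 39 higher and 2 lower with library totals and 42 higher and 2 lower with TPM, and the calls over all genes were 8232 higher and 3434 lower with library totals and 9786 and 2626 with TPM, against 5776 and 5312 with TMM. Both scalings were chosen after seeing the data.

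The rise was largest in genes of different roles. AURKB (chr17:8204733-8210600) measured 1.95, 1.84 and 1.96 CPM in Sen (IR) and 6.19, 4.62 and 5.99 after depletion (1.53 ± 0.17, edgeR adjusted p = 5.78e-08). CENPF (chr1:214603185-214664574) went from 12.6, 13.8 and 17.1 CPM to 38.3, 41.2 and 39.8 (1.46 ± 0.11, edgeR adjusted p = 8.45e-11), and the condensin subunit NCAPH from 3.10, 3.15 and 3.17 to 6.88, 8.33 and 8.64 (1.34 ± 0.12, edgeR adjusted p = 2.34e-09). In each of these 3 genes all depleted libraries lay above all Sen (IR) libraries. FOXM1 rose to 26.4, 26.3 and 23.8 CPM (1.33 ± 0.12, edgeR adjusted p = 1.54e-09), above every Prol library, although the difference from Prol did not pass the test (0.21 ± 0.11, edgeR adjusted p = 0.0974).

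Cyclin A2 and cyclin B1 moved in opposite directions. CCNA2 rose to 40.4, 45.7 and 43.2 CPM (1.15 ± 0.10, edgeR adjusted p = 1.51e-09), above every Prol library, and CDK1 rose to 38.6, 39 and 42.2 CPM (1.31 ± 0.12, edgeR adjusted p = 4.22e-09). CCNB1 fell to 18.9, 17.5 and 17 CPM (-0.93 ± 0.084, edgeR adjusted p = 2.43e-09), 42.9% of its Prol mean, and its groups did not overlap. CCNB2, the other B-type cyclin, measured 9.60, 9.55 and 8.20 CPM in Sen (IR) and 8.17, 8.96 and 9.22 after depletion and did not pass the test (-0.06 ± 0.091, edgeR adjusted p = 0.591). The phosphatase CDC25B rose (0.34 ± 0.064, edgeR adjusted p = 8.52e-05), while its relative CDC25C did not pass (0.31, edgeR adjusted p = 0.304).

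Of the 6 kinesins, 4 rose and 2 fell. The spindle motor KIF11 (1.00 ± 0.078, edgeR adjusted p = 1.95e-10), the chromokinesin KIF4A (1.18), KIF18A (0.89) and the depolymerase KIF2C (0.80) were higher. KIF20A, a kinesin of the central spindle (chr5:138178719-138187723), fell from 10.6, 12.5 and 10.9 CPM to 5.91, 6.51 and 6.06 (-0.87 ± 0.093, edgeR adjusted p = 2.96e-08). KIF23, a subunit of the centralspindlin complex, was close to the threshold (-0.18 ± 0.077, edgeR adjusted p = 0.0490), lost the call when any 1 of 5 of the 6 libraries was left out, and turned to 0.08 with library totals and 0.25 with TPM.

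The remaining roles were mixed except for chromosome structure, where all 5 genes rose (MKI67 1.00, TOP2A 1.00, NCAPG 1.29, NCAPH 1.34 and SMC4 0.89). Of the kinases PLK4 (1.18 ± 0.10, edgeR adjusted p = 4.53e-10), BUB1B (0.61), TTK (0.60) and BUB1 (0.51) rose, whereas PLK1 (-0.17 ± 0.16) and AURKA (-0.03 ± 0.056) did not pass. In the checkpoint and anaphase-promoting group MAD2L1 rose to values that overlapped those in Prol, at 26.7, 25.1 and 28.1 CPM against 26, 25.6 and 26.9 in Prol (1.11 ± 0.085, edgeR adjusted p = 1.44e-10), and the separase inhibitor PTTG1 rose by less (0.54). UBE2C passed (0.38 ± 0.15, edgeR adjusted p = 0.0311), but lost the call in 4 of the 15 alternatives, with a value of 0.20 without the third Sen (IR) library, the one that stood apart. CDC20 measured 6.46, 6.79 and 6.47 CPM in Sen (IR) and 5.32, 5.98 and 5.44 after depletion (-0.23 ± 0.10, edgeR adjusted p = 0.0572) and passed as lower in 3 alternatives. Of the 6 kinetochore genes CENPF, SPC25 (0.94) and NUF2 (0.80) rose, and CENPA (0.40 ± 0.23), CENPE (-0.01 ± 0.085) and NDC80 (0.22 ± 0.13) did not pass. With library totals and TPM, CENPA passed as higher (0.66 and 0.83) and CENPE turned to a called rise of 0.25 and 0.42.

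**Figure D4:**
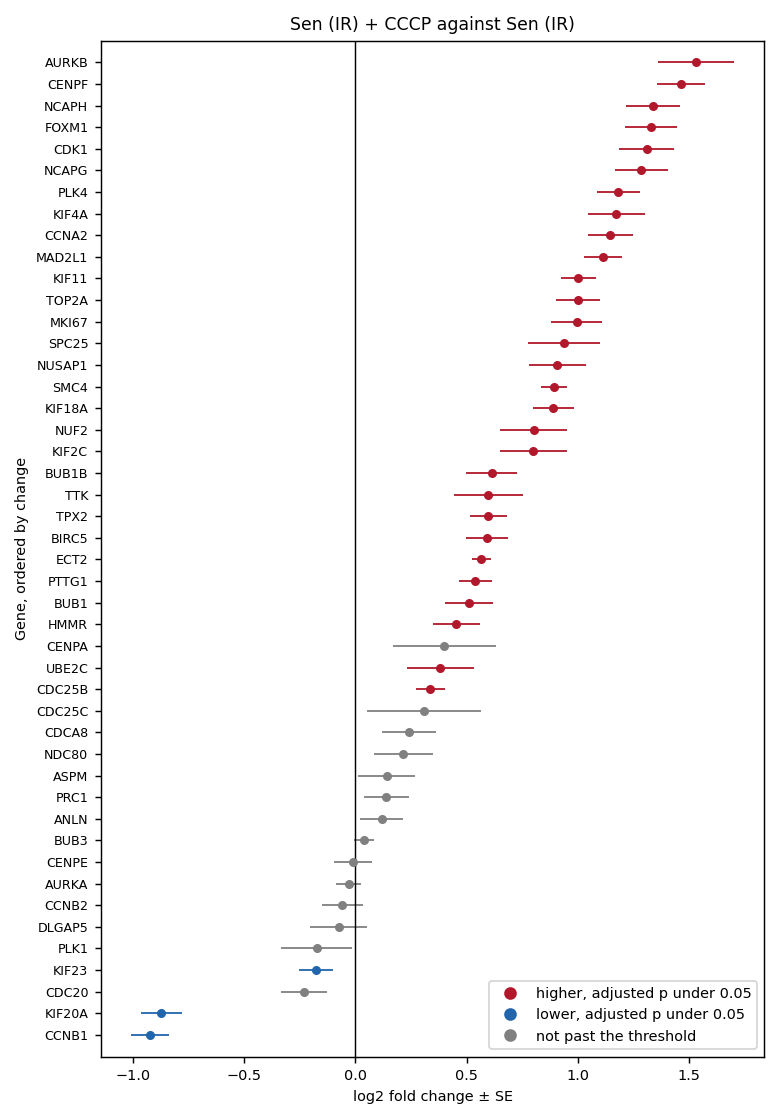
Log2 fold change with its SE for each of the 46 mitosis genes in Sen (IR) + CCCP against Sen (IR), ordered by size (red, higher; blue, lower; grey, not past an edgeR adjusted p of 0.05). AURKB at 1.53 and CENPF at 1.46 lie at the top, and CCNB1 at -0.93 and KIF20A at -0.87 lie apart from all others at the bottom.

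Set against Prol, the depleted cells had 33 genes lower and 5 higher, where 34.1% of all genes tested were lower and 35.1% higher. The 5 higher genes were CCNA2 (0.46 ± 0.10, edgeR adjusted p = 2.92e-04), AURKA (0.39), ECT2 (0.36), KIF18A (0.30) and CDC25B (0.20). The largest falls were in KIF20A (-1.99 ± 0.090, edgeR adjusted p = 1.49e-14), ASPM (-1.87) and PLK1 (-1.40). The counts in this comparison depended on scaling, since with TPM the median of all genes stood at 0.54 and the calls were 15 higher and 16 lower, and with library totals 0.38, 11 and 21. Relative to the median of all genes the 46 genes stood at -0.56 with TMM, library totals and TPM alike. By the 3 comparisons among these groups, 18 genes were lower in Sen (IR) than in Prol, rose with depletion and were still below Prol, and 7 rose to values that did not pass the test against Prol (CDK1, MAD2L1, SPC25, KIF4A, NCAPG, NCAPH and FOXM1). Another 12 did not pass with depletion and were below Prol, among them PLK1, CDC20, CCNB2 and PRC1, and 3 fell both times (CCNB1, KIF20A and KIF23). These patterns were counted for the 46 genes only, so no share of all genes stands beside them.

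Depletion moved other measures too. The 8 fibroblast markers summed to 20345 to 25271 CPM in Sen (IR) and 6586 to 6880 in Sen (IR) + CCCP, all 8 were lower with a median log2 fold change of -2.29, and none was at 0 in any library. Among them collagen genes fell most (COL3A1 -3.07, COL1A1 -2.95) and vimentin least (VIM -0.12). The 4 epithelial markers summed to 8.99 to 12.9 CPM in Sen (IR) and 1.70 to 2.54 after depletion, and of the 3 endothelial and 3 leukocyte markers none exceeded 1 CPM in any library, with KRT5, CDH5 and CD3E at 0 counts in 17, 12 and 15 of the 18 libraries. The part of these changes in the rise of the mitosis genes was not tested.

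The comparison of acetate with no acetate asks whether its supply to depleted senescent cells alters the programme. In Sen (IR) + CCCP + acetate all 46 genes were lower than in Sen (IR) + CCCP, against 28.3% of all genes tested that were lower and 28.8% that were higher. The median log2 fold change was -2.51 over the 46 genes and 0.0054 over all genes. For all 46 genes the 3 acetate libraries lay below the 3 Sen (IR) + CCCP libraries, which held for 32.8% of all genes, and all 46 remained called when any library was left out.

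KIF20A fell the most, from 5.91, 6.51 and 6.06 CPM to 0.311, 0.463 and 0.399 (-3.93 ± 0.15, edgeR adjusted p = 3.27e-15), a 15.2-fold drop. SPC25, a subunit of the NDC80 complex, fell from 4.04, 4.32 and 5.26 CPM to 0.242, 0.463 and 0.588 (-3.30 ± 0.21, edgeR adjusted p = 8.66e-12). CDC20 (chr1:43358981-43363203) fell from 5.32, 5.98 and 5.44 CPM to 0.518, 0.727 and 0.441 (-3.30 ± 0.15, edgeR adjusted p = 3.36e-14). In each of these 3 genes the highest acetate library lay far below the lowest library without it. UBE2C (-3.24), MKI67 (-3.23), BIRC5 (-3.20), HMMR (-3.15) and KIF2C (-3.12) followed.

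The genes that had risen with depletion fell as well. CCNA2 fell from 40.4, 45.7 and 43.2 CPM to 7.40, 8.86 and 7.12 (-2.46 ± 0.11, edgeR adjusted p = 3.53e-14), CDK1 from 38.6, 39 and 42.2 to 6.12, 5.99 and 5.10 (-2.81 ± 0.14, edgeR adjusted p = 1.48e-13) and FOXM1 from 26.4, 26.3 and 23.8 to 3.39, 3.22 and 3.48 (-2.92 ± 0.13, edgeR adjusted p = 4.49e-14). MKI67 went from 28.9, 32.5 and 30.0 CPM to 2.73, 3.26 and 3.57, 5.39% of its Prol mean, and TOP2A from 99.6, 114 and 115 to 19.1, 19.3 and 17.5 (-2.56 ± 0.11, edgeR adjusted p = 1.05e-14). CCNB1, which depletion had lowered, fell further to 7.16, 6.32 and 6.32 CPM (-1.44 ± 0.094, edgeR adjusted p = 2.02e-11). Genes on both courses after depletion were thus lower with acetate.

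The smallest falls were in BUB3, ECT2 and PTTG1. BUB3 (chr10:123154402-123170467) measured 143, 149.5 and 141 CPM without and 107, 116 and 106 with acetate (-0.40 ± 0.046, edgeR adjusted p = 1.48e-07), and ECT2 (chr3:172750682-172821474) 132, 143 and 134 and 90.1, 90.5 and 89.1 (-0.60 ± 0.044, edgeR adjusted p = 1.44e-10). PTTG1 fell by 0.83, CDC25B and KIF23 by 1.17 each and AURKA by 1.19. Apart from FOXM1, the lone transcription factor at -2.92, the median log2 fold change by role lay between -1.64 in the checkpoint and anaphase-promoting group and -2.63 in the passenger complex and cytokinesis group, with kinetochore genes at -2.45, kinesins at -2.47, kinases at -2.48, cyclins with CDK1 and its phosphatases at -2.53, spindle-associated genes at -2.39 and chromosome structure at -2.56.

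Levels with acetate lay under those of Sen (IR) cells with mitochondria. For 45 of the 46 genes, all but ECT2, all 6 libraries with acetate, with or without mtDNA, were below all 3 Sen (IR) libraries, which held for 28% of all genes tested. With acetate alone 41 genes were under 50% of their Prol mean, 38 under 25% and 18 under 10%, where Sen (IR) had 32, 1 and 0. Genes under these shares of Prol were not counted over all genes tested. CDKN1A moved the other way and was higher with acetate (log2 fold change 0.75 ± 0.050, edgeR adjusted p = 2.81e-11). With depletion, where 29 of the 46 genes rose, CDKN1A was higher as well (0.15 ± 0.050, edgeR adjusted p = 0.0113), so it did not run opposite to them throughout. The fibroblast markers did not move as a block, with 3 higher and 4 lower of 8 and a median of -0.02.

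Transfected mtDNA was given to ask whether mtDNA in the cytosol acts on depleted cells. In Sen (IR) + CCCP + mtDNA, 10 of the 46 genes were lower than in Sen (IR) + CCCP and 0 higher, against 7.4% lower and 10.7% higher among all genes tested. By unadjusted p under 0.05 there were 14 in either direction, about the 29.5% found among all genes. DESeq2's Wald test called 10 lower and 0 higher, against 7.3% and 11.4% of the genes it tested. The median log2 fold change was -0.13 over the 46 genes and 0.0029 over all genes. PLK1 had the largest fall, from 4.07, 5.98 and 4.94 CPM to 2.89, 3.63 and 3.46 (-0.59 ± 0.17, edgeR adjusted p = 0.0200), then KIF20A from 5.91, 6.51 and 6.06 to 4.74, 4.28 and 4.88 (-0.41 ± 0.10, edgeR adjusted p = 0.00714) and HMMR from 17.8, 18.5 and 20.5 to 14.1, 14.3 and 16.1 (-0.35 ± 0.11, edgeR adjusted p = 0.0260). The groups overlapped in none of these 3. TOP2A (-0.32), BUB1B (-0.32), ANLN (-0.30), MAD2L1 (-0.26), KIF11 (-0.23), AURKA (-0.21) and SMC4 (-0.17) made up the rest of the 10. The cyclins, CDK1, MKI67 and FOXM1 did not pass, at -0.21 ± 0.10 for CCNA2, -0.21 ± 0.12 for CDK1, -0.22 ± 0.11 for MKI67 and -0.12 ± 0.11 for FOXM1.

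Every library weighed on the count for mtDNA. Without replicate 1, 2 or 3 of Sen (IR) + CCCP, 6, 3 and 2 genes were lower, and without replicate 1, 2 or 3 of Sen (IR) + CCCP + mtDNA, 1, 5 and 3 were, with CDC25B higher in the second case. Over all genes tested, the fits without a Sen (IR) + CCCP library called 737 of 17376, 918 of 17410 and 883 of 17464 lower. Those without a Sen (IR) + CCCP + mtDNA library called 778 of 17472, 915 of 17461 and 777 of 17463 lower, with 1676 higher in the second. Some of the member counts were thus near the share of all genes. A fit of the 2 groups alone called 16 lower, and 1820 of the 15546 genes it tested. All of these fold changes were small beside those with acetate, which was given from day 3, whereas mtDNA was transfected on day 10. The median stayed between -0.20 and -0.10 over all alternatives. None of the 6 groups is labelled as given the transfection reagent alone.

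With acetate and mtDNA together all 46 genes were lower than in Sen (IR) + CCCP, where 31.4% of all genes tested were, with a median log2 fold change of -2.45. The largest falls were in KIF20A (-3.54 ± 0.15, edgeR adjusted p = 2.19e-14), UBE2C (-3.47) and BIRC5 (-3.27). Set against mtDNA alone, acetate lowered all 46 genes as well, against 29.9% of all genes, with a median of -2.35. Without the second library of the combination, the one that stood apart, the medians were -2.61 and -2.48, and the 46 genes were called in both.

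The change with acetate can be set side by side in cells with and without mtDNA, since these 2 comparisons share no library. KIF20A fell by 3.93 without and 3.13 with mtDNA, CDC20 by 3.30 and 3.22, MKI67 by 3.23 and 2.48, CDK1 by 2.81 and 2.46, CCNA2 by 2.46 and 2.46, and BUB3 by 0.40 and 0.44. Across the 46 genes, which are not independent replicates, Pearson's r was 0.951, and across all 16994 genes it was 0.843. These falls with mtDNA and both values of r include the second library of the combination, and r was not computed without it. The median with mtDNA was -2.35 with that library and -2.48 without it, and the median in cells without mtDNA was -2.51.

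**Figure D5:**
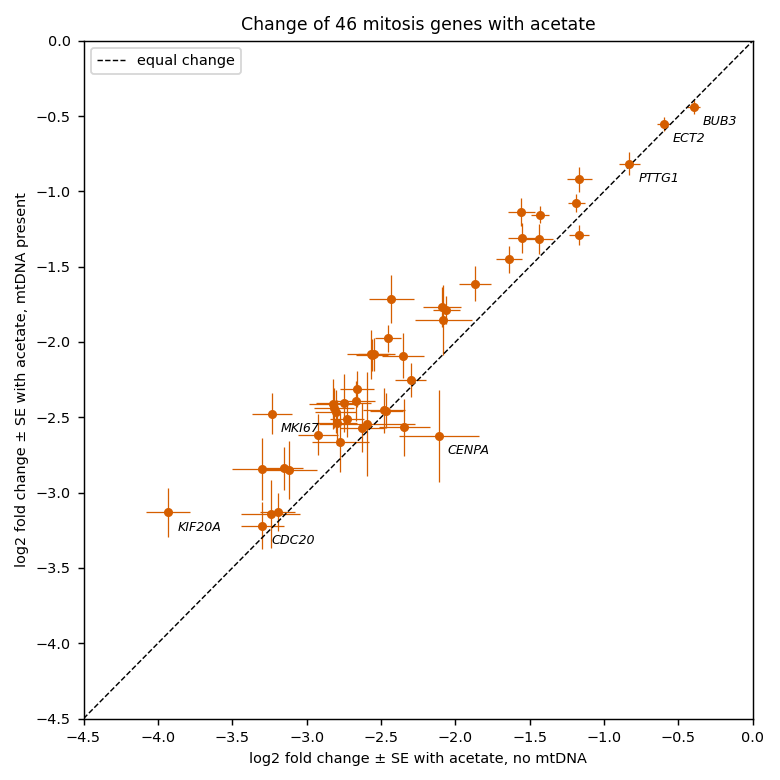
Log2 fold change with acetate in depleted cells without mtDNA (horizontal) and with mtDNA (vertical), with SE, for the 46 mitosis genes; the dashed line marks equal change. All points lie below 0 on both axes and 42 lie above the line, with KIF20A at -3.93 and -3.13 and BUB3 at -0.40 and -0.44 at the ends. The values with mtDNA include the second library of the combination, which stood apart.

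The difference between the 2 falls, the interaction of acetate and mtDNA on the log2 scale, was above 0 for 42 of the 46 genes, with a median of 0.26. Among all 16994 genes tested it was above 0 for 7759, with a median of -0.02. The count of 42 includes the second library of the combination. In edgeR's test 0 of the 46 passed an adjusted p of 0.05, against 0.659% of all genes tested, and 10 had an unadjusted p under 0.05, against 11.4% of all genes. DESeq2's Wald test called 5, against 1.96% of the genes it tested. The largest interactions were in KIF20A (0.80 ± 0.27, edgeR adjusted p = 0.251) and MKI67 (0.76 ± 0.20, edgeR adjusted p = 0.0974). Without the second library of the combination the median interaction was 0.08 and 0 genes were called, and without the first it was 0.38 and 4 were called. Over all genes, 72 of 17497 were called higher and 331 lower without the second library. Without the first, 18 of 17441 were called higher and 75 lower.

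Within the cells given acetate, 1 of the 46 genes passed the test for mtDNA. MKI67 was higher with mtDNA, from 2.73, 3.26 and 3.57 CPM to 3.51, 6.23 and 4.66 (0.53 ± 0.17, edgeR adjusted p = 0.0367), and 0 were lower, against 6.57% and 6% of all genes. By unadjusted p under 0.05 there were 7 in either direction, where 26.7% of all genes had such a p. DESeq2's Wald test called 3 higher and 0 lower, against 11.3% and 4.88% of the genes it tested. The MKI67 groups overlapped, its highest value came from the second library of the combination, and without that library its value was 0.32 (edgeR adjusted p = 0.248). Without the first library of the combination 7 genes were higher, and 1096 of the 17441 genes tested. Without the second, 0 were higher, and 855 of the 17497 genes tested. The 46 genes had a median coefficient of variation of 26.8% in this group, against 4.54% to 9.02% in the other 5, which limits what could be detected in it.

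Other genes of the cell cycle were taken as lists chosen by name, and the genes named from them were picked after their values were seen. Of 50 further mitosis genes, such as kinetochore, kinesin and spindle proteins, 44 were lower in Sen (IR) than in Prol, 43 rose with depletion and 49 fell with acetate, with medians of -0.82, 0.79 and -1.99. The 1 gene of the 50 that rose with acetate was KNSTRN, an adaptor at kinetochores and the spindle (0.33), and it had fallen with depletion (-0.71). Of 20 genes of the G1/S transition and replication 15 were lower in Sen (IR), 17 rose with depletion and 19 fell with acetate (medians -0.40, 0.90 and -1.67), among them the replication factor MCM10 (-0.91, 1.81 and -2.83) and the ribonucleotide reductase subunit RRM2 (-0.39, 1.51 and -3.09). CCNE1, cyclin E1, ran against them, higher in Sen (IR) (1.07), lower with depletion (-0.91) and not past the test with acetate (0.04).

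The core of the anaphase-promoting complex and cohesin, the ring that holds sister chromatids together, are made of proteins that cells also use outside mitosis. Of 15 genes for core subunits of the complex and its coactivator FZR1, 3 were higher and 1 lower in Sen (IR), 6 rose and 4 fell with depletion, and 2 rose and 10 fell with acetate, with a median of -0.20. Among all genes tested 26.7% were higher and 29.9% lower in Sen (IR), 34% rose and 31.3% fell with depletion, and 28.8% rose and 28.3% fell with acetate, so that the counts of the complex with depletion lie near those of all genes. Of 9 cohesin genes 7 were lower in Sen (IR), all 9 rose with depletion with a median of 0.50, and with acetate 2 rose and 4 fell with a median of 0.03. Of 16 regulators of these promoters, 8 were lower and 2 higher in Sen (IR), 11 rose and 1 fell with depletion, and 9 fell and 3 rose with acetate. MYBL2, which encodes B-MYB, went down in Sen (IR) (-1.33), up with depletion (1.67) and down with acetate (-2.64), as did the repressor E2F8 (-0.80, 2.45 and -3.92). RBL2, the p130 protein of the DREAM complex, went down in Sen (IR) (-0.48), down with depletion (-0.69) and up with acetate (0.91). It was the 1 regulator of the 16 called lower with depletion and had the largest rise of them with acetate. The other DREAM and MuvB genes of the list are given only within these counts. All values named in these lists passed an edgeR adjusted p of 0.05, other than that of CCNE1 with acetate.

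Some reads can belong to neighbours. Of the 46 genes, 17 share exon bases with another annotated gene (GENCODE, GRCh38), 15 of them on the opposite strand, and whether reads were counted by strand is not stated. The largest shares were on the same strand, where 81.4% of the exon bases of NUSAP1 and 57.6% of those of PRC1 also belong to a gene annotated under an Ensembl identifier alone. Neither of those neighbours was among the genes counted. NUSAP1 also shares 5.4% of its bases on the same strand with OIP5-AS1, which was counted and reached 141 CPM. On the opposite strand, 34.3% of the bases of PRC1 lie against PRC1-AS1, 33.7% of NCAPG against LCORL, 19.0% of SMC4 against TRIM59, 15.9% of FOXM1 against ITFG2 and 11.6% of PLK1 against a gene with no symbol, and the other opposite-strand shares are under 10%. CENPA, whose highest group mean was 4.87 CPM, shares 7.08% of its bases on the same strand with SLC35F6, which reached 86.8 CPM. Of the 29 genes that share none, 26 were lower in Sen (IR), 19 rose and 1 fell with depletion, and all 29 fell with acetate, with medians of -1.19, 0.57 and -2.56. PTTG1 has near-identical gene copies elsewhere in the genome, and its counts are uncertain for that reason.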

How the data were processed

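PolyA RNA of 18 IMR90 libraries was sequenced in 2x150bp reads. The authors deposited raw counts per gene, made by trimming (Trimmomatic 0.36), alignment to GRCh38 (STAR 2.5.2b) and assignment of uniquely mapped reads to exons (featureCounts, Subread 1.5.2). They also deposited TPM, counts corrected for gene length and library size, used here for levels between genes and as an alternative scaling. Every library was placed in its group by its label, and 3 libraries per group are replicates that the study calls independent experiments.

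From the counts, edgeR 4.0.16 (R 4.3.3) fitted 1 quasi-likelihood model with 6 group means after TMM normalization and filterByExpr, which left 16994 genes. Adjusted p-values follow Benjamini and Hochberg over all genes tested, with a threshold of 0.05, and errors of log2 fold changes are standard errors. CPM use TMM-scaled library sizes. No p-value was computed over the 46 genes as a set. The procedure was tested on simulated counts with the same spread between libraries for every gene. It recovered 77 of 98 changes of 1 on the log2 scale (78.6%) and 96 of 98 changes of 2 (98%). The named genes were a fixed panel of 24 members, in each comparison the 3 members that rose and the 3 that fell most past the threshold, and members, where 5 or fewer, that did not pass or moved against the rest. Others given with values are further members of the same role, chosen once the values were known. The members, roles and lists were chosen with earlier results of these data known. Alternatives were DESeq2 1.42.0 (size factors, Wald test, and a rule of nominal p under 0.05 with an absolute log2 fold change over 0.5), no filter, a mean of at least 1 CPM, only the groups compared, mtDNA-encoded genes left out, a replicate block, each library left out, and 2 scalings chosen after seeing the data (library totals, TPM). Gene positions are from GENCODE and promoter sequences from RefSeq, both on GRCh38.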

Additional observations from a re-analysis of the deposited data

How the results depend on the processing

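The falls in Sen (IR) against Prol and in the 3 comparisons of acetate with a depleted group kept 41 to 46 members called under all alternatives, and the counts for Sen (IR) + CCCP against Sen (IR) stayed at 25 to 42 higher and 2 to 4 lower. Under DESeq2 with the rule of nominal p and fold change, 0 members were higher in Sen (IR) against Prol and 0 in Sen (IR) + CCCP against Prol, since the rule needs larger changes. In Sen (IR) + CCCP against Prol the counts were 11 higher and 21 lower with library totals, 15 higher and 16 lower with TPM scaling, and 8 higher when only those groups were fitted. Over all genes these counts were 9166 higher and 3521 lower, 10371 higher and 2783 lower, and 5942 higher. For mtDNA against Sen (IR) + CCCP, leaving out 1 library gave 1 to 6 lower and 0 to 1 higher, the 2 groups alone gave 16 lower and the DESeq2 rule 1. Over all genes, leaving out 1 library gave 737 to 918 lower and 1384 to 1676 higher. The 2 groups alone gave 1820 lower over all genes, and the DESeq2 rule 994. For acetate and mtDNA against acetate, leaving out 1 library gave 0 to 7 higher, with a median log2 fold change that turned to -0.057 without the second library of the combination and reached 0.22 without the first, and the other settings gave 2 higher with DESeq2 size factors, 0 with library totals, 0 with TPM, 2 without a filter, 0 with only those groups and 3 with DESeq2's Wald test. Over all genes in that comparison, leaving out 1 library gave 668 to 1096 higher. The other settings, in the same order, gave 1641, 657, 773, 1002, 787 and 1838 higher over all genes. For the interaction, leaving out 1 library gave 0 to 4 higher, no filter 5, DESeq2's Wald test 5 and its rule 7. Over all genes the interaction counts were 3 to 72, 128, 132 and 301 higher.

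The added scalings turned single genes in Sen (IR) + CCCP against Sen (IR), CENPE to 0.25 with library totals and 0.42 with TPM, and KIF23 to 0.083 and 0.25. The cause of these changes was not tested. Libraries with the same replicate number did not deviate together (45 correlations, -0.17 to 0.15), so the numbers were not taken as pairs, and the replicate block gave 2 higher instead of 1 for acetate and mtDNA against acetate and 1 instead of 0 for the interaction, with all other counts within 1 of those reported. With counts down to 3 in the acetate groups, the folds of the lowest genes are the least precise.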
